A study of Mus musculus and Rattus norvegicus with 96 samples.

Results

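Rat lung that was frozen, then placed in 10% neutral buffered formalin for 18 to 24 h and embedded in paraffin (FR > FFPE), was compared with rat lung that was only frozen (FR). The libraries were chosen by their labels alone: the 6 lung libraries labelled as frozen before fixation (numbered 55 to 60) and the frozen lung libraries numbered 49 to 53. These are 11 of the 96 libraries of the series. The remaining frozen lung library, number 54, held 12 counts and was left out. All 11 libraries came from lung of male WKY rats that received vehicle, an inbred strain, and no group carried any other treatment or allele. The labels name neither the age of the rats nor the individual rat behind a library, so whether FR and FR > FFPE tissue came from the same lungs cannot be told, and p-values here measure only the spread between these libraries, which may be technical. Within the series the same assay was also run on WKY lung fixed directly in the same formalin for 1 year (FFPE 1yr, n = 6) and on liver of vehicle-treated male F344 rats, of which FR (n = 6) and FR > FFPE (n = 6) are used below. The question was how far the profile of embedded lung departs from that of frozen lung when the tissue was frozen before it met formalin.

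TempO-Seq does not sequence RNA itself. A pair of short detector oligos is hybridised side by side on each target transcript, the pair is ligated where both are bound, and the ligated product is amplified and counted, so the readout needs only a short intact stretch of RNA. Formalin crosslinks RNA and protein and adds methylol groups to bases, and paraffin blocks hold RNA that is fragmented, which is why short-target assays are used on archives. In the lung, gas exchange takes place across thin type 1 (AT1) cells and capillary endothelium, type 2 (AT2) cells make surfactant, and alveolar macrophages clear the airspace, with blood cells, fibroblasts and smooth muscle contributing further RNA. According to the labels' protocol, embedded tissue entered the assay as a lysate cleared of paraffin, while the frozen libraries are titled as RNA. Preservation and the form of the input therefore cannot be told apart in this design, and in bulk tissue fewer cells of a type and less RNA per cell cannot be told apart either.

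The count table lists 28760 rat genes as rows, of which 2654 had at least 1 count in the 11 libraries. FR libraries held 2013606 to 2505947 counts and FR > FFPE libraries 802686 to 1786807, so the frozen group was the more deeply sequenced. The 5 FR libraries correlated with each other at r = 0.987 to 0.993 on log2 CPM (counts per library scaled to a common size) and the 6 FR > FFPE libraries at 0.902 to 0.976, with the lowest values in pairs that hold library 57 or 59, and pairs across the groups ran from 0.698 to 0.823. No pair of libraries agreed within sampling noise (smallest chi-square per degree of freedom 6.68). Of 8 defining markers set for the tissue check, the surfactant genes Sftpc and Sftpb, the club cell gene Scgb1a1, the AT1 gene Ager and the endothelial gene Cdh5 are listed with 0 counts in all 18 lung libraries, Pecam1 has no row, and Cd68 and Alb were counted. The tissue label was therefore checked on other lung genes: Lamp3, an AT2 lysosomal gene, was at 5133 ± 509 CPM in frozen lung (s.d., n = 5) and at a mean of 0.232 CPM in frozen liver (n = 6), while Alb, the liver's serum albumin, was at 12.8 ± 14 CPM and 405192 ± 42785 CPM, when both tissues were scaled together.

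More of the panel was detected in embedded lung than in frozen lung, although the embedded libraries were shallower. Rows with 10 or more counts numbered 1816, 1856, 1838, 1814 and 1807 in the FR libraries and 2148 to 2274 (median 2225) in FR > FFPE, and the groups did not overlap. The means were 1826 ± 20.3 (s.d., n = 5) and 2217 ± 47.8 (s.d., n = 6), with an exact two-sided permutation p of 0.0021645, the smallest that 5 against 6 libraries can give. At an equal depth of 802686 counts the expected numbers were 1579 ± 10.6 and 2146 ± 26.5 (same exact p). The 10 most abundant rows took 30.6 ± 0.537% of the counts in FR and 27 ± 3.05% in FR > FFPE (exact permutation p = 0.0346), and these shares overlapped between the groups.

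**Figure D1:**
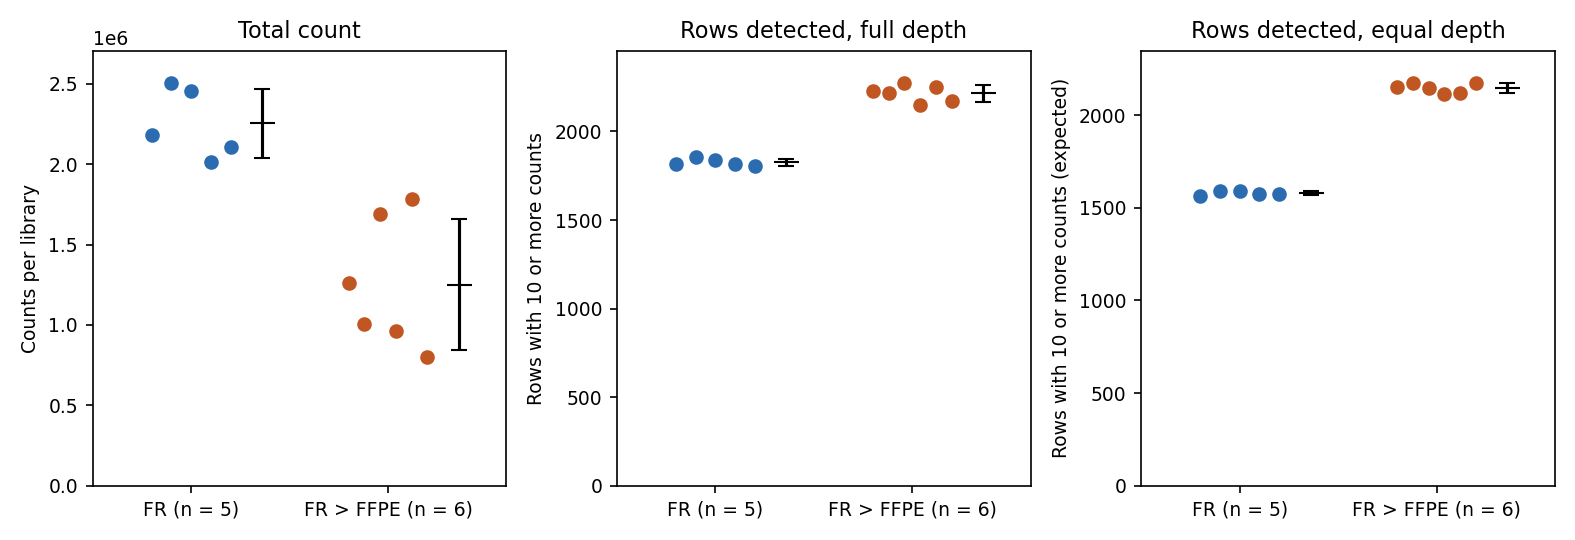
Total count (left), rows with 10 or more counts at full depth (middle) and expected rows with 10 or more counts at 802686 counts (right) in each library, with group means and s.d. as black bars. FR > FFPE totals lie below every FR total, while FR > FFPE row numbers (2148 to 2274 at full depth) lie above every FR number (1807 to 1856).

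With edgeR's quasi-likelihood test and TMM scaling (a trimmed mean of ratios that assumes most rows do not differ), 1223 of 2236 rows tested were differentially expressed genes (DEGs) of FR > FFPE vs. FR, which is 54.7% of the rows. A DEG had a Benjamini-Hochberg adjusted p under 0.05 over all rows and a fold change of at least 2. Of these, 810 rows (36.2% of those tested) were higher and 413 (18.5%) were lower in embedded lung. Counts of DEGs in the gene lists below stand beside these shares. With the adjusted p alone 78.1% of rows passed, 45.8% being higher and 32.2% lower. The low-count filter asked for about 5.6 CPM in at least 5 libraries, and 574 of the 2236 rows met it only with the help of embedded libraries. Of the 1662 rows that would have passed on the 5 FR libraries alone, 694 were DEGs (41.8%), 284 higher (17.1%) and 410 lower (24.7%). With TMM scaling the excess of rises over falls thus came with rows that were scarce in frozen lung. For the latter rows a test says little, since they had to be high in embedded lung to be tested, and their levels are given below without one, except for Actc1, Alb and Atp5l, which reached the level in some FR libraries. This split of the rows was chosen after seeing the data. The CPM ranges of the groups did not overlap in 1477 rows, 66.1% of those tested. The split between directions depends on the scaling. With the total count as the library size 1266 rows were DEGs (56.6%), 1104 higher (49.4%) and 162 lower (7.25%), so that 12.8% of DEGs were lower in place of 33.8%, and 972 DEGs were called in the same direction under both. The median log2 fold change over all rows was 0.30 with TMM and 0.97 with the total count, a shift of 0.68. Values below are CPM on the TMM scale, log2 fold changes are FR > FFPE minus FR on that scale, and a total-count value is given where it changes the call of a named gene or takes the falls of a list to 0. Expected counts that are not whole numbers mark rows that share reads with another row in the authors' estimate, and 217 of the rows tested, with 111 of the DEGs, were of that kind. Leaving out FR > FFPE libraries 57 and 59, which had the lowest correlations, gave 1192 DEGs (781 higher, 411 lower).

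The direction of the difference varied with the level in frozen lung. Among rows above 1000 CPM in FR, 131 of 230 fell and 6 rose, with a median log2 fold change of −1.16. Between 100 and 1000 CPM, 239 of 773 fell and 34 rose (median −0.59). From 10 to 100 CPM the balance was the other way, with 269 of 695 rows higher and 41 lower (median 0.65). Some of these rows, Actc1 and Atp5l among them, also met the filter only with the help of embedded libraries. All 695 rows with a count at this frozen level were nevertheless tested, so the filter left none of them out. Rows of 1 to 10 CPM in FR had a median of 3.57 CPM there and 19.3 CPM in FR > FFPE, over the 457 rows with a count. Below that level, rows passed the filter on low counts only through the embedded libraries, so that all of them rose is set by the filter and is no result. Over all 328 rows with a frozen mean above 0 and up to 1 CPM, tested or not, the median was 0.331 CPM in FR and 4.92 CPM in FR > FFPE. Rows above 1000 CPM took 75.3 to 76.4% of the counts of each FR library and 61.5 to 65.5% of each FR > FFPE library. When the level was taken from FR libraries 49 and 50 and the ratio from libraries 51 to 53, Spearman's rho was −0.803 across all 2236 rows, part of which the filter builds in through the scarce rows, and −0.61 across the 1662 rows that pass on FR alone. Both describe rows that share the same embedded libraries. With the total count the medians of the upper groups moved to −0.48 and 0.08, and rows above 1000 CPM still counted more falls (58) than rises (13). Rows of 100 to 1000 CPM then had 136 rises and 93 falls, and rows of 10 to 100 CPM 437 and 11.

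**Figure D2:**
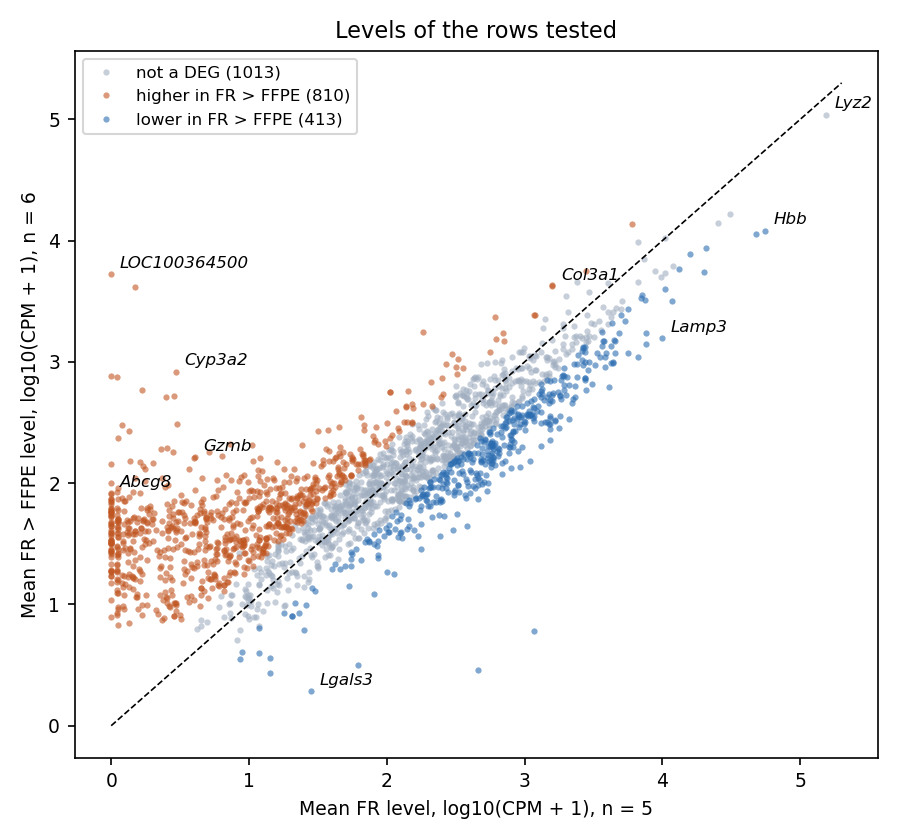
Mean level of each of 2236 rows tested in FR (horizontal) and FR > FFPE (vertical), both as log10(CPM + 1), with the line of equality dashed. The 810 rows higher in FR > FFPE are mostly at the low end of the frozen scale and lie in a band above the line, while the 413 lower rows lie below it at medium and high frozen levels.

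Some rows were counted in embedded lung and in no frozen lung library, single genes best known from other organs among them. In 54 rows every FR library was at 0 and every FR > FFPE library held 10 or more counts, with mean levels from 16.2 to 5278 CPM (median 41.6), and 8 of the 54 share reads. No row showed the reverse. All 54 entered the test through the embedded libraries, so no p is given. Of the genes named next, Prl, Fshb, Gad1, Slc6a3 and Drd2 were chosen after their values were seen. Abcg8, a subunit of the sterol exporter of liver and gut, was at 0 in all 5 FR libraries and at 54 to 119 CPM (median 82) in FR > FFPE. Fabp2, the intestinal fatty acid binding protein, was at 0 and at 62.8 to 93.1 CPM (median 83.3). Against a floor of 3 counts over the frozen group the mean levels of Abcg8 and Fabp2 were at least 239-fold and 233-fold higher. Prl, the pituitary hormone prolactin, ran from 48.5 to 71.2 CPM (median 63.3, at least 179-fold higher), and Fshb, the beta subunit of follicle-stimulating hormone, from 45.3 to 67.5 CPM (median 49.7, at least 151-fold higher). Gad1, which makes GABA in neurons, was at 37.9 to 66.7 CPM, Slc6a3, the dopamine transporter, at 24 to 68.8 CPM, and Drd2, a dopamine receptor, at 18 to 45.5 CPM. Gdf9, an oocyte growth factor, was at 33.7 to 88 CPM (median 56.2), and Cyp11b2, the adrenal aldosterone synthase, at 40.2 to 84.3 CPM (median 58.2). Each gene named here had 0 counts in the 5 FR libraries. That the groups do not overlap is set by the choice of the 54 rows and is no result.

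The same 54 rows were then read in libraries that had no part in choosing them. In lung fixed directly for 1 year, 53 of the 54 had a count in 6 of 6 libraries. In frozen F344 liver 23 of them were at 0, 38 were under 1 CPM and 14 were at 20 CPM or more on the total-count scale. In FR > FFPE liver all 54 were counted, with a median of 7.59 CPM on that scale, so these counts are not particular to lung. Prl, for example, was at 0 in frozen liver, 7.75 CPM in FR > FFPE liver and 23.6 CPM in lung fixed for 1 year. Whether the levels come from these transcripts or from oligo pairs ligated without them was not tested.

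The 10 largest rises by fold change were led by rows of multigene families whose reads the authors' estimate divides between near copies, and these are uncertain as single genes. LOC100364500, a row inside the major histocompatibility complex (chromosome 20, 2704148 to 2707121 of rn6, the build the labels give), was at 0 in every FR library and at 3503 to 6573 CPM (median 5677) in FR > FFPE. RT1-CE10, a class I histocompatibility gene on the same chromosome (154074 to 157862), was at 0 and at 508 to 953 CPM (median 825). Both are among the 54 rows chosen above for counts in every embedded and no frozen library, so their separation is set by that choice. Both rows share reads with other rows. Summed over the 41 RT1 rows of the table the level was 27348 ± 1927 CPM in FR (s.d., n = 5) and 24723 ± 2971 CPM in FR > FFPE (s.d., n = 6), with ranges that overlap on the TMM scale. The TMM factors, which multiply the library total, were 0.755 to 0.792 in FR and 1.19 to 1.29 in FR > FFPE. Comparisons of summed levels can therefore depend on the scaling. LOC100360856, whose reads are shared too, had 4 counts over the frozen group and 37550 over the embedded group, a ratio of 8838 (95% exact interval 3452 to 32440, counting error only). Ugt2b37, a glucuronosyltransferase with whole counts, had 2 and 2739 counts (ratio 1289, interval 357 to 10652) and ran from 247 to 383 CPM in FR > FFPE. LOC100360856 and Ugt2b37 also passed the filter only through embedded libraries.

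At the other end, the largest falls lay beside the beta-globin gene. LOC103694857 read 492, 444, 447, 465 and 424 CPM in FR and 0.462 to 2.97 CPM (median 1.92) in FR > FFPE. LOC103694855, which it overlaps, read 1258, 1154, 1155, 1204 and 1108 CPM and 0.924 to 8.72 CPM (median 5.38). Their log2 fold changes were −7.95 (SE 0.23) and −7.92 (SE 0.32), and both rows share reads. LOC103694857 reached the level of the filter in 0 FR > FFPE libraries and LOC103694855 in 3. Both were thus tested only with the help of FR libraries, where they are high, and no p is given. Added to Hbb, the beta-globin row that starts on the same chromosome at 168971274, the 3 rows came to 56977 ± 7205 CPM in FR and 12109 ± 4852 CPM in FR > FFPE (s.d.), so nearly all of that sum is Hbb.

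Among rows with whole counts the largest falls were moderate in level. Lgals3, galectin-3 of macrophages and epithelium, read 23.7, 19.7, 23.3, 29.9 and 38.9 CPM in FR and 0 to 3.23 CPM (median 0.436) in FR > FFPE. Its log2 fold change of −4.57 (SE 0.51) rests on 232 and 10 counts. Lgals3 passed the filter only through FR libraries, so no p is given. Slc25a46, a mitochondrial outer membrane protein, read 480, 291, 362, 345 and 434 CPM against 17 to 68.2 CPM (median 44.7). Its groups did not overlap, and its log2 fold change was −3.14 (SE 0.30, adjusted p 3.83e-07). Ubqln2, which carries ubiquitinated proteins to the proteasome, fell by 2.94 on the log2 scale, Tmem50a, a small membrane protein, by 2.85, Tusc3, a subunit of the glycosylation machinery, by 2.83, and Eif2ak2, the kinase PKR that senses double-stranded RNA, by 2.79. None of these genes overlapped between groups, which is set by the rule that named them and is no result. For Eif2ak2 the highest FR > FFPE library was at 57.3 CPM and the lowest FR library at 219 CPM.

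The rows with the highest frozen levels mostly fell. Lyz2, the lysozyme of alveolar macrophages and AT2 cells, was the most abundant row, at 172322, 150536, 154087, 140642 and 154925 CPM in FR and 76951 to 130153 CPM (median 116237) in FR > FFPE. Its ranges did not overlap on the TMM scale, but its log2 fold change of −0.50 (SE 0.18, adjusted p 0.0231) is under 2-fold, and on the total count it was 0.18 with an adjusted p of 0.371, so its direction depends on the scaling. As a share of all counts Lyz2 was 11.9 ± 0.714% in FR and 13.5 ± 2.68% in FR > FFPE (exact permutation p = 0.236). Hbb fell from 43033, 55034, 61598, 58761 and 58307 CPM to 7220 to 21308 CPM (median 10970), with the highest embedded value in library 57. Its log2 fold change was −2.19 (SE 0.25, adjusted p 1.80e-06). S100a6, a calcium-binding protein of epithelium and stroma, fell by 2.06 on the log2 scale (SE 0.20, adjusted p 4.39e-07), from at least 40128 CPM in each FR library to at most 16500 CPM in each FR > FFPE library. Igfbp7, an endothelial matrix protein, had a log2 fold change of −1.03 and Rps6, a ribosomal protein whose reads are shared, one of −1.18, and both lost the 2-fold criterion on the total count (−0.35 and −0.50). Rack1, a scaffold on the ribosome, was at −0.97 and was no DEG under either scaling.

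Alveolar cells were represented by few rows. Lamp3 (chromosome 11, 84972132 to 85000682) read 10493, 8879, 10640, 8762 and 10740 CPM in FR and 359 to 2672 CPM (median 1552) in FR > FFPE. The lowest FR library was above the highest FR > FFPE library, and the log2 fold change was −2.65 (SE 0.38, adjusted p 1.86e-05). Cav1, caveolin-1 of AT1 cells and capillary endothelium (chromosome 4, 44597123 to 44630201), read 6910, 7709, 7579, 8644 and 7297 CPM and 635 to 2391 CPM (median 1253). It too was separate between groups and fell by 2.45 on the log2 scale (SE 0.29, adjusted p 2.63e-06). In both genes library 57 was the lowest of the embedded group. Only 2 of 12 AT2 markers, 1 of 9 AT1 markers and 1 of 8 club and airway markers had counts, and none of 9 ciliated cell markers did. The other counted AT2 row, the transcription factor gene Cebpa, was at 191 ± 18.1 CPM in FR and 339 ± 127 CPM in FR > FFPE (s.d.), which overlapped, with a log2 fold change of 0.83 that was 1.51 and a DEG on the total count. The airway gene Cyp2f4, a P450 of club cells, had 31.5, 10.1, 69.3, 73.7 and 75.9 CPM in FR and 54.9 to 75.1 CPM in FR > FFPE, which overlapped (log2 fold change 0.30, SE 0.37, adjusted p 0.463).

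Blood cell genes were lower in embedded lung where they were abundant. All 3 red cell rows tested fell, with a median log2 fold change of −1.79 beside 0.30 over all rows, of which 18.5% fell and 36.2% rose. Besides Hbb these were Alas2, the erythroid heme synthesis enzyme (95.8, 126, 127, 114 and 131 CPM against 19.9 to 49.4 CPM), and Hba-a2, an alpha-globin (1342 to 1648 CPM against 315 to 598 CPM). Of 3 neutrophil rows 2 fell, and the other, at 0.59 on the log2 scale, was no DEG with TMM and was higher on the total count. S100a8 read 715, 454, 820, 696 and 749 CPM in FR and 124 to 171 CPM (median 141) in FR > FFPE, and S100a9, its partner in calprotectin, 2369, 2099, 3359, 2962 and 2911 CPM and 545 to 881 CPM (median 759). Every embedded library was below every frozen library for both genes, with log2 fold changes of −2.25 (SE 0.16, adjusted p 1.90e-08) and −1.91 (SE 0.16, adjusted p 1.38e-07). The platelet chemokine Pf4 fell by 1.72 on the log2 scale, and the other of 2 platelet rows was no DEG (−0.11). The summed level of the red cell markers was 44471 to 63352 CPM in FR and 7555 to 21854 CPM in FR > FFPE, and their part in the other results was not tested.

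Of 10 macrophage rows 3 fell, 1 rose and 6 were no DEGs, with a median log2 fold change of −0.47 that was 0.21 on the total count. Over all rows 18.5% fell and 36.2% rose. Cd68, a lysosomal protein of macrophages, was steady within FR at 233, 239, 237, 253 and 247 CPM and was 49 to 97.9 CPM (median 76.2) in FR > FFPE. This drop, of −1.76 on the log2 scale (SE 0.17, adjusted p 4.69e-07), separated the groups. Mrc1, the mannose receptor, was at −1.45 and lost the 2-fold criterion on the total count (−0.77). Of 4 endothelial rows 1 was higher and 1 lower, with 2 and 0 on the total count. Vwf, von Willebrand factor, read 2549 to 3181 CPM in FR and 562 to 2236 CPM in FR > FFPE (log2 fold change −1.06, SE 0.28, adjusted p 3.04e-03), and on the total count it was −0.39 with an adjusted p of 0.215. It was also under 2-fold without library 56 (−0.99), 57 (−0.93) or 59 (−0.97). Nos3, the endothelial nitric oxide synthase, was at 13.6 to 26.7 CPM and 24.7 to 84.8 CPM, which overlapped, with a log2 fold change of 1.14 (adjusted p 4.21e-03) that was below 2-fold without library 57 (0.79).

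**Figure D3:**
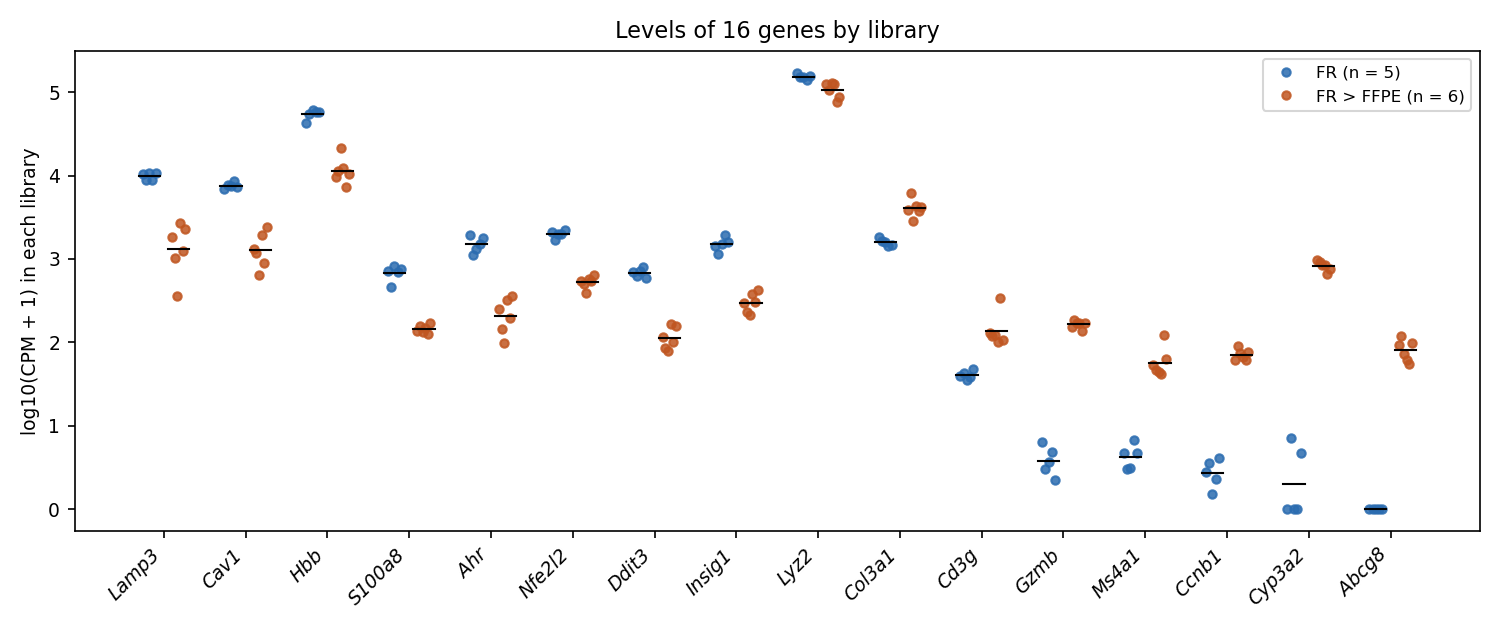
Level of 16 genes in each library as log10(CPM + 1), FR in blue and FR > FFPE in orange, with the mean of each group as a black line. On the TMM scale the groups do not overlap for any of the 16, which are a selection, beside 66.1% of all rows tested. Gzmb, Ms4a1, Ccnb1, Cyp3a2 and Abcg8 passed the filter only through embedded libraries. Abundant genes such as Lamp3 and Hbb are lower and scarce genes such as Gzmb and Abcg8 higher in FR > FFPE.

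Of 6 T and NK cell rows 4 rose and none fell (median 1.36), beside 36.2% and 18.5% of all rows. Of the 4 rises 2 were in the 4 rows that pass the filter on FR alone, beside 17.1% of all such rows. Gzmb, granzyme B of cytotoxic cells, read 5.46, 2.02, 2.64, 3.81 and 1.23 CPM in FR and 136 to 184 CPM (median 169) in FR > FFPE. Cd3g, a chain of the T cell receptor complex, read 38.2, 41.8, 34.4, 36.9 and 46.3 CPM and 100 to 340 CPM (median 121), the highest being library 59. Both genes were separate between groups. Gzmb passed the filter only through embedded libraries, and Cd3g, which did not need them, had a log2 fold change of 1.96 (SE 0.31, adjusted p 5.38e-05). Cd8a, the cytotoxic T cell coreceptor, rose by 1.38. Ms4a1, the B cell surface protein CD20 and the 1 row of its list, went from 2.02 to 5.72 CPM in FR to 41 to 121 CPM in FR > FFPE, was again highest in library 59 and passed the filter only through embedded libraries. Of 3 mast cell rows 2 rose and the abundant Kit, a receptor whose reads are shared, went from 1151 ± 93.1 to 690 ± 307 CPM (s.d.) and was no DEG, so that the sum of the list was 1053 to 1308 CPM in FR and 386 to 1299 CPM in FR > FFPE. The rows that rose include Fcer1a, the alpha chain of the IgE receptor (12.1 to 19.7 CPM and 35.1 to 72.1 CPM, log2 fold change 1.74). The summed T and NK markers were 917 CPM in library 59 and 431 to 509 CPM in the other 5 embedded libraries, against 304 to 358 CPM in FR.

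Of 6 fibroblast rows 3 rose and 1 fell with TMM, beside 36.2% and 18.5% of all rows, while on the total count 3 rose and none fell. Col3a1, the chain of type III collagen, is among the 6 rows above 1000 CPM in FR that rose, from 1812, 1626, 1612, 1425 and 1481 CPM in FR to 2843 to 6253 CPM (median 4014) in FR > FFPE. All embedded libraries were above all frozen ones (log2 fold change 1.40, SE 0.18, adjusted p 7.25e-06). Lum, the matrix proteoglycan lumican, rose by 2.27 (11.6 to 19.1 CPM and 45.3 to 95.5 CPM). Col1a1, type I collagen, had 17 and 78 counts and passed the filter only through embedded libraries. Of 4 smooth muscle rows 1 rose, Myh11, smooth muscle myosin, from 10 to 15.8 CPM to 19.2 to 61.6 CPM. Actc1, cardiac actin and the 1 heart muscle row tested, was at 4.25 to 21 CPM in FR, at 401 CPM in library 57 and 241 CPM in library 59, and at 16.6 to 30.6 CPM in the other 4 embedded libraries. The groups overlapped, although edgeR called a log2 fold change of 3.47 (adjusted p 2.42e-03). Without libraries 57 and 59 it was 1.23 (adjusted p 7.34e-03).

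Genes of the liver were counted in embedded lung at levels far below those of liver itself. Of 8 hepatocyte rows 5 rose and 1 fell (median 2.15), beside 36.2% and 18.5% of all rows. However, 5 of the 8 pass the filter only through embedded libraries, and of the other 3 rows 1 rose and 1 fell. Cyp3a2, a steroid and drug hydroxylase whose reads are shared, read 0, 6.05, 0, 0 and 3.70 CPM in FR and 666 to 969 CPM (median 839) in FR > FFPE. Apoa2, an apolipoprotein of high-density particles, read 1.21, 3.53, 1.06, 3.18 and 0 CPM and 107 to 224 CPM (median 192), and Fgb, the fibrinogen beta chain, had 1 count over FR and 326 over FR > FFPE (ratio 307, exact 95% interval 54.7 to 12160). Cyp3a2, Apoa2 and Fgb passed the filter only through embedded libraries. Alb was uneven in both groups, at 21.8, 27.2, 0, 68.6 and 5.55 CPM in FR and from 0 to 288 CPM (median 16.2) in FR > FFPE, the highest being library 57. Its groups overlapped and it was no DEG (log2 fold change 1.42, SE 1.19, adjusted p 0.285), with a value of −0.46 without library 57. Serpina1, alpha-1 antitrypsin, fell by 1.70 on the log2 scale. The summed hepatocyte markers were 185 to 349 CPM in FR and 940 to 1706 CPM in FR > FFPE, with 1 of the 10 counted rows at 0 in every FR library.

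Xenobiotic metabolism, the family of oxidising, conjugating and transporting enzymes that lung shares in part with liver, held the most DEGs of any list. Of 54 rows tested 36 rose and 4 fell, beside 36.2% and 18.5% of all rows, with a median log2 fold change of 3.72. The median frozen level of its counted rows was 1.64 CPM, and 31 of the 54 pass the filter only through embedded libraries. Of the other 23 rows 6 rose and 4 fell, which is 26.1% and 17.4% beside 17.1% and 24.7% of all such rows, with a median of 0.25. On the TMM scale the summed level of the family was 12724 to 14222 CPM in FR and 8157 to 11216 CPM in FR > FFPE, without overlap, a difference that depends on the scaling. The rows that fell were those abundant in frozen lung. Ahr, the aryl hydrocarbon receptor that induces the family, read 1942, 1104, 1317, 1509 and 1796 CPM in FR and 96.5 to 362 CPM (median 220) in FR > FFPE. No embedded library came near the frozen ones, and the log2 fold change was −2.76 (SE 0.30, adjusted p 1.48e-06). Aldh1a1, which makes retinoic acid, was at −1.31 and was under 2-fold on the total count (−0.62).

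Stress response genes did not move as one. Among 12 targets or regulators of Nrf2, the sensor of oxidants, 6 fell and 2 rose (median −1.14). Nfe2l2, which encodes Nrf2, read 2113, 1665, 2008, 1976 and 2249 CPM in FR and 392 to 639 CPM (median 543) in FR > FFPE, and Hmox1, heme oxygenase 1, 592, 522, 512, 642 and 584 CPM and 102 to 175 CPM (median 160). Both were separate between groups, with log2 fold changes of −1.91 (SE 0.14, adjusted p 2.77e-08) and −1.96 (SE 0.16, adjusted p 1.05e-07). Me1, malic enzyme, fell by 2.64, while Nqo1, a quinone reductase, rose from 50.9 to 59.7 CPM in FR to 102 to 202 CPM in FR > FFPE (log2 fold change 1.45). Of 14 ER stress rows 5 fell and 3 rose, with a median of −0.16 that was 0.52 on the total count. Over all rows 18.5% fell and 36.2% rose. Ddit3, the transcription factor CHOP, read 689, 627, 720, 805 and 585 CPM and 77.1 to 166 CPM (median 108), a log2 fold change of −2.56 (SE 0.20, adjusted p 6.49e-08), whereas Atf4, which acts upstream of it, was higher in all 6 embedded libraries (1605 to 2794 CPM against 1097 to 1444 CPM, log2 fold change 1.03, adjusted p 3.06e-05). Xbp1, a regulator of ER capacity, rose by 1.71. Atf4 was just under 2-fold with DESeq2 (0.98) and without library 58 or FR library 53 (1.00 and 0.99).

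Among 14 immediate early genes, which are switched on within minutes of a stimulus, 5 rose and 3 fell (median 0.42), with 7 rises and no fall on the total count. The TMM shares are near those of all rows, of which 36.2% rose and 18.5% fell. Btg2, an antiproliferative member, read 79.4, 69.5, 63.5, 48.3 and 57.4 CPM in FR and 235 to 583 CPM (median 316) in FR > FFPE, and Zfp36, which destabilises inflammatory mRNAs, 1583 to 2175 CPM and 235 to 974 CPM (median 899). Their log2 fold changes were 2.45 (adjusted p 3.86e-07) and −1.30 (adjusted p 7.72e-04), the latter under 2-fold on the total count (−0.62). Of 16 p53 and DNA damage rows 6 rose and 1 fell, and of the 11 that pass the filter on FR alone 1 rose and 1 fell. Of all rows that pass on FR alone 17.1% rose and 24.7% fell. Mdm2, the ligase that restrains p53, was the member that fell, with a log2 fold change of −1.66 that was −0.98 and no DEG on the total count. Of 7 heat shock and chaperone rows 1 rose and 1 fell, with a median of −0.54 that was 0.14 on the total count, where 2 rose and none fell.

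Proteasome, ribosome and initiation factor rows had medians below that of all rows. Of 13 proteasome rows 5 fell and 1 rose, with a median of −0.51 that was 0.17 on the total count. Psmd6, a lid subunit, read 1714, 1188, 1340, 1404 and 1623 CPM in FR and 53.3 to 466 CPM (median 341) in FR > FFPE, and Psmb9, an immunoproteasome subunit that lies in the histocompatibility complex, 468 to 674 CPM and 77.1 to 223 CPM. Both were separate between groups (log2 fold changes −2.20 and −2.08, adjusted p 1.06e-04 and 3.08e-06). Of 10 cytosolic ribosomal protein rows 3 fell and 2 rose (median −0.93), and the 2 that rose were below 1 CPM in FR. On the total count the median was −0.26 and none of the 3 falls was called. Translation initiation factors gave 1 fall, that of Eif2ak2, and no rise among 6 rows (median −0.81). Of 11 respiratory chain rows 5 rose and 2 fell, beside 36.2% and 18.5% of all rows. Atp5c1, the gamma subunit of ATP synthase, fell from 1868, 1629, 1746, 1808 and 1775 CPM to 116 to 404 CPM (median 304), while Atp5l, subunit g of the same enzyme, rose from 6.67, 11.1, 10, 9.53 and 16 CPM to 96.1 to 150 CPM (median 129). These subunits of a single complex had log2 fold changes of −2.65 (SE 0.28, adjusted p 1.06e-06) and 3.56 (SE 0.21), and neither overlapped between groups, though Atp5l met the level of the filter in 4 of 5 FR libraries.

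Of 20 rows of cholesterol and fatty acid synthesis 5 fell and 2 rose, beside 18.5% and 36.2% of all rows, with a median of −0.41 that was 0.27 on the total count. Of the 18 that pass the filter on FR alone 5 fell (27.8%) and 1 rose (5.56%), beside 24.7% and 17.1% of all such rows. Insig1, which retains sterol regulators in the ER, read 1429, 1158, 1511, 1953 and 1586 CPM in FR and 210 to 426 CPM (median 300) in FR > FFPE. Its groups did not overlap, and its log2 fold change was −2.31 (SE 0.20, adjusted p 1.23e-07). Hmgcs1, a synthase of the sterol pathway, had 16 counts over FR and 298 over FR > FFPE and passed the filter only through embedded libraries. Hypoxia and glycolysis rows gave 4 of 12 in each direction, with a median of −0.55 that was 0.13 on the total count.

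Of 20 cell cycle rows 12 were higher and 2 lower (median 1.61), beside 36.2% and 18.5% of all rows, with 15 and 0 on the total count. Of the 14 rows that pass the filter on FR alone 6 were higher (42.9%, beside 17.1% of all such rows) and 2 lower, with a median of 0.86. The summed level of the list was 2859 to 3069 CPM in FR and 2395 to 3393 CPM in FR > FFPE, which overlapped on the TMM scale. Ccnb1, cyclin B1, read 1.82, 2.52, 0.529, 1.27 and 3.08 CPM in FR and 60.5 to 88.9 CPM (median 69) in FR > FFPE, and Cdk1, its kinase, 1.21 to 2.54 CPM and 28.8 to 75.7 CPM. Both were separate between groups, and both passed the filter only through embedded libraries. Rb1, the retinoblastoma protein that blocks S phase entry, was abundant and had a log2 fold change of −1.58 with TMM and −0.90 on the total count, where it was no DEG. Of 43 interleukin, chemokine and receptor rows 23 rose and 5 fell (median 1.31), but of the 24 that pass the filter on FR alone 5 rose and 5 fell (median −0.17). On the TMM scale their summed level was lower in FR > FFPE without overlap, at 4661 to 5293 CPM in FR and 3409 to 4165 CPM, a difference that depends on the scaling. Il20, an epidermal cytokine, had 2 counts over FR and 678 over FR > FFPE (ratio 319, exact 95% interval 88 to 2641), and Ifnb1, interferon beta, had 0 and 163 counts (at least 51.9-fold higher). Il20 and Ifnb1 passed the filter only through embedded libraries. Il18, a cytokine released by inflammasomes, read 335, 285, 326, 376 and 338 CPM in FR and 68.9 to 100 CPM (median 83.8) in FR > FFPE, and Ccl11, eotaxin, 242 to 398 CPM and 68.9 to 123 CPM. Their log2 fold changes were −1.99 and −1.80 (adjusted p 1.33e-08 and 7.23e-07), and their groups did not overlap.

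Of 32 matrix rows 11 were higher and 6 lower, with a median of 0.04, and on the total count 14 were higher and 3 lower, with a median of 0.71. The TMM shares are near those of all rows, of which 36.2% were higher and 18.5% lower. Mmp1, a collagenase, had 2 counts over FR and 413 over FR > FFPE (ratio 194, exact 95% interval 53.5 to 1611, counting error only). It passed the filter only through embedded libraries. Col12a1, a fibril-associated collagen, rose from 22.2 to 57.4 CPM to 165 to 482 CPM (log2 fold change 2.90), and Spp1, osteopontin, fell from 44.8 to 164 CPM to 10.6 to 27.6 CPM (log2 fold change −2.71). In the remaining lists most rows were no DEGs: 13 of 17 for TGF-beta and BMP signalling, 14 of 20 for apoptosis and 13 of 21 for mitogen-activated kinases. Over all rows tested 54.7% were DEGs. On the total count the falls of apoptosis and of kinase rows were 0. Over the 27 lists with at least 3 rows tested, 10 medians lay above the median of all rows.

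**Figure D4:**
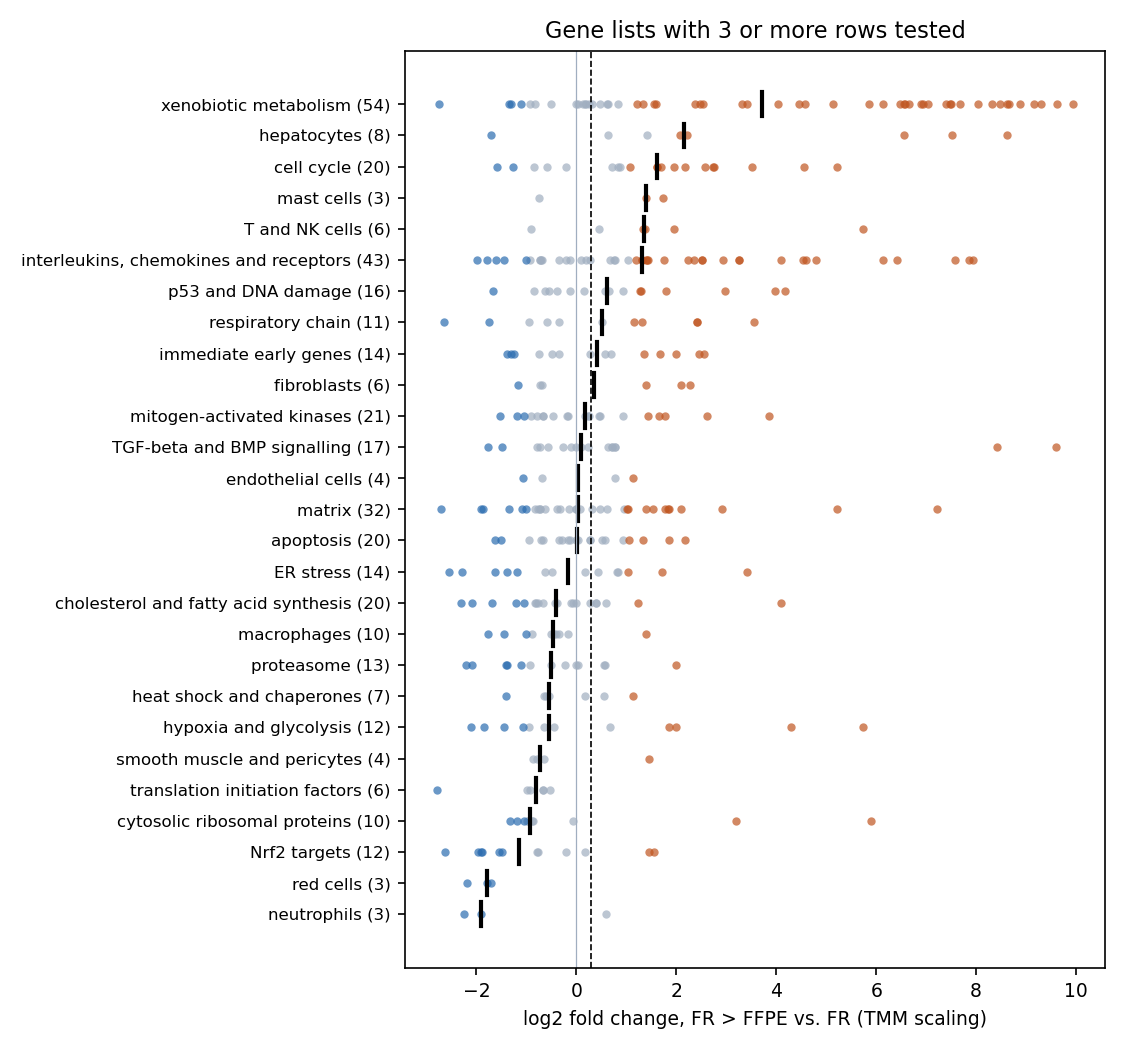
Log2 fold change of every row tested in each of 27 lists (number of rows in brackets), orange for DEGs higher and blue for DEGs lower in FR > FFPE, grey for rows that were no DEGs, with the median of the list as a black bar and the median of all 2236 rows (0.30) dashed. Medians run from −1.91 for neutrophils to 3.72 for xenobiotic metabolism.

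Liver allowed the same contrast in another tissue, with the difference that liver came from F344 and lung from WKY rats, so that tissue and strain cannot be told apart. In 1 fit of both tissues, 1338 of 2322 rows were DEGs of FR > FFPE vs. FR in lung (57.6%, with 33.9% higher and 23.8% lower) and 1142 in liver (49.2%, with 33% higher and 16.2% lower). The difference between the contrasts was itself significant and at least 2-fold in 721 rows (31.1%), with 318 rows further up in lung (13.7%) and 403 further down (17.4%). On the total count 620 rows differed, 276 of them further down in lung. Of 120 rows at most 1 CPM in frozen lung and at least 20 CPM in frozen liver, which pass the filter through liver whatever they do in lung, 112 rose in embedded lung and 1 fell, while 9 rose and 42 fell in embedded liver. Their median level was 0.182 CPM in frozen lung, 13.7 CPM in FR > FFPE lung and 720 CPM in frozen liver. Of the 25 rows at least 20 CPM in frozen lung and at most 1 CPM in frozen liver, 22 rose in embedded liver and 7 fell and 2 rose in embedded lung. Both sets were chosen by the frozen libraries that also enter the contrasts. Rows at most 1 CPM there had little room to fall, so their direction in that tissue is set in large part by the choice. In the 153 rows at most 1 CPM in both frozen tissues, the levels of embedded lung and embedded liver were ordered alike, with Spearman's rho of 0.776 across rows, which share the panel but no library. These 153 rows passed the filter only through embedded libraries.

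Single genes show both patterns. Amy1a, an amylase with shared reads, was at 0 CPM in frozen lung, 32.1 ± 5.89 CPM in FR > FFPE lung, 2281 ± 148 CPM in frozen liver and 815 ± 282 CPM in FR > FFPE liver (s.d.). Urad, an enzyme of uric acid breakdown, was at 0, 30.5 ± 9.36, 672 ± 49.7 and 243 ± 55.5 CPM in the same order. Thus each was higher in embedded lung and lower in embedded liver than in the frozen tissue. Lamp3 fell in lung as given above and went from a mean of 0.232 CPM to 5.92 ± 2.48 CPM in liver, a log2 difference between the contrasts of −7.30 (SE 0.82, adjusted p 5.27e-08). Ccl11 fell in lung and went from 0.593 ± 1.12 to 23.4 ± 8.56 CPM in liver (difference −7.21, SE 0.53, adjusted p 1.75e-11). Fam183b, a gene of cilia, and Dynlrb2, a dynein light chain, overlapped between FR and FR > FFPE in lung (267 to 604 against 27.9 to 272 CPM, and 40.3 to 101 against 51.4 to 77 CPM). Grm3, a glutamate receptor, was at 139 ± 6.9 CPM in frozen lung, 44.4 ± 11.9 CPM in FR > FFPE lung, 0 in frozen liver and 8.09 ± 4.38 CPM in FR > FFPE liver. LOC100364500, at 0 in frozen lung and 2355 ± 622 CPM in embedded lung, was at 1209 ± 161 CPM in frozen and 2152 ± 281 CPM in embedded liver. Hbb fell by 2.39 on the log2 scale in lung and by 1.59 in liver, and this difference did not pass the test (−0.80, SE 0.49, adjusted p 0.196).

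**Figure D5:**
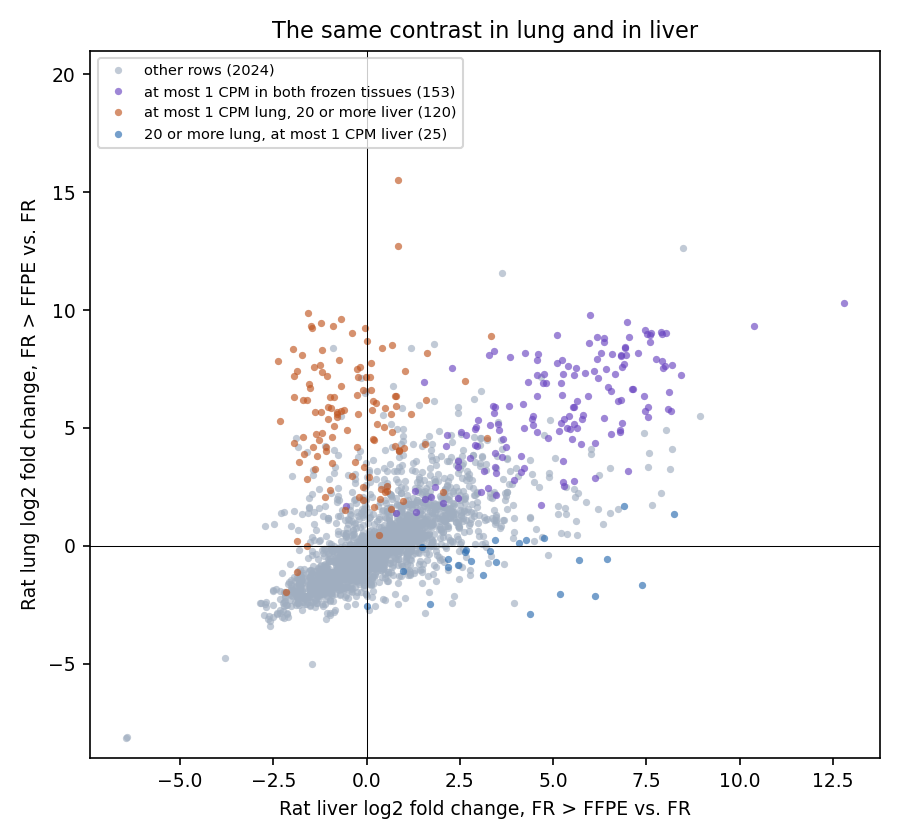
Log2 fold change of FR > FFPE vs. FR in liver (horizontal) and lung (vertical) for 2322 rows, with rows coloured by their level in the 2 frozen tissues. Of the 120 rows low in frozen lung and high in frozen liver, 112 were DEGs higher and 1 lower in lung, with 9 higher and 42 lower in liver. Of the 25 rows of the opposite kind, 22 were DEGs higher in liver, with 7 lower and 2 higher in lung. Rows chosen as low in a frozen tissue had little room to fall in it. The 153 rows low in both lie mostly upper right, having passed the filter only through embedded libraries.

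In 1 fit of the 3 lung groups, FFPE 1yr vs. FR > FFPE gave 297 DEGs of 2322 rows (12.8%), 144 higher (6.2%) and 153 lower (6.59%) after 1 year, beside 1301 for FR > FFPE vs. FR (56%, with 37.8% higher and 18.3% lower) and 1238 for FFPE 1yr vs. FR (53.3%, with 36.2% higher and 17.1% lower), which share the frozen libraries. Time in formalin and freezing before it changed together, so they cannot be told apart. Ptgdr, a prostaglandin D2 receptor, was at 0.759 CPM in FR, 633 ± 88.5 CPM in FR > FFPE and 125 ± 55.3 CPM in FFPE 1yr (s.d., n = 6). Its log2 fold change between the embedded groups was −2.35 (SE 0.27, adjusted p 1.39e-05). That these groups do not overlap is set by the rule that named it. Hsd3b5, a steroid dehydrogenase of liver, went from 82 ± 16.1 CPM in FR > FFPE to 15.8 ± 3.59 CPM in FFPE 1yr. LOC100364500 went from 5772 ± 1436 to 1381 ± 530 CPM. In the other direction Upk1a, a urothelial membrane protein, was at 2.88 ± 2.35 CPM in FR > FFPE and 27 ± 13.2 CPM after 1 year, and Apoc3, an apolipoprotein of the liver, at 3.29 ± 1.21 and 23.6 ± 15.4 CPM. Among 252 rows at most 1 CPM in frozen lung, the levels of the 2 embedded groups were related across rows with Spearman's rho of 0.585, a description of rows measured on the same panel. No sequence of the panel's detector oligos was used here.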

How the data were processed

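The submitters' processing notes name CASAVA 1.8.2, Partek, STAR 2.5.3a and the builds GRCm38, mm10 and rn6. Which of these served the rat tables, and the settings, are not given in the sources used here, since the paper's methods describe the mouse studies. The deposited rat lung table holds expected counts per gene, of which 92.9% of the values above 0 are whole within 0.01. A deposited table of log2 values holds log2(CPM + 1) over 2192 rows and served 1 alternative.

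Counts were rounded. Rows passed filterByExpr, library sizes were scaled with TMM, and edgeR 4.0.16 (glmQLFit, glmQLFTest) in R 4.3.3 was fitted to the 11 libraries, and DEGs had to pass 0.05 after Benjamini-Hochberg adjustment and to differ at least 2-fold. The contrast with liver (an interaction) and FFPE 1yr vs. FR > FFPE were fitted with their own groups. Single values were compared by exact two-sided permutation tests over libraries. Folds against a group at 0 used a floor of 3 counts over that group, and ratios with few counts have exact 95% binomial intervals. Intervals and floors cover counting error only. Steps were tested on simulated data. Alternatives used DESeq2 1.42.0, limma 3.58.1, other scalings, filters, depths and libraries.

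The libraries, gene lists and tests were chosen with earlier results of these data known. Named genes were the 10 largest rises and falls among DEGs of at least 20 CPM in the higher group without overlap, the 10 highest rows in FR, the 3 largest rises and falls of each list, 8 defining markers, the largest rises and falls among rows with whole counts (added after seeing the data) and the 5 largest differences in each direction of the other contrasts, shortened for the text, and other genes are marked as chosen after their values were seen. The depth was 802686 to 2505947 counts a library, where the floor of 3 counts over a group is 0.344 CPM for FR and 0.324 CPM for FR > FFPE. Frozen library 54 was left out, and no sequence was printed because no rat reference was used here. Certain genes are not reported here.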

Additional observations from a re-analysis of the deposited data

Results flagged for a closer look

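Values of single libraries stood apart from the rest of their group in 17 of 190 groups of values checked, where chance gives about 1 in 20. FR library 50 held 6 of the 17. It was the lowest FR library for Rps6 (10200 CPM) and Hmgcs1 (0.504 CPM), the highest for Vwf (3181 CPM) and Atf4 (1444 CPM), and the 1 FR library with a count of Ugt2b37 and of Il20 (1.01 CPM each). FR > FFPE library 57 held 6. It was the highest embedded library for Hbb (21308 CPM), Nos3 (84.8 CPM), Alb (288 CPM) and Btg2 (583 CPM) and the lowest for Atf4 (1605 CPM) and Mdm2 (164 CPM). FR > FFPE library 59 was the highest for Cd3g (340 CPM) and Ms4a1 (121 CPM) and the lowest for Gad1 (37.9 CPM). FR library 49 held the 1 frozen count of Fgb (0.607 CPM), and FR > FFPE library 56 was the highest for Fshb (67.5 CPM).

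The contrast of FR > FFPE with FR differed between lung and liver in 721 rows. The largest differences upward in lung, as log2 fold change in lung minus that in liver, were LOC100364500 (14.67), RT1-CE10 (11.89), LOC100912485 (11.43), Amy1a (10.80) and Urad (10.71). The largest downward were Grm3 (−9.03), Fam183b (−8.26), Lamp3 (−7.30), Ccl11 (−7.21) and Dynlrb2 (−6.99). LOC100364500, RT1-CE10, Amy1a and Urad were at 0 in frozen lung and Grm3 and Fam183b at 0 in frozen liver, so their fitted differences depend on the prior count of the fit and bound nothing. Of 92 genes of the text in that fit, 33 differed between the tissues, and tissue and strain cannot be told apart.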

How the results depend on the processing

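The number of DEGs was 1223 and stayed between 1113 and 1360 under other scalings, DESeq2 (1238), limma voom (1244), other filters on group means, another depth (1124 when thinned) and 3 lung groups in the fit (1301). It was 685 (402 higher, 283 lower) of 1670 rows where at least 10 counts were asked of every library, which tests fewer rows, and 1746 with the adjusted p alone. Among the 1662 rows that pass the filter on frozen libraries alone, a split chosen after seeing the data, it was 694 (284 higher, 410 lower). With TMM the larger number of rises thus depends on rows scarce in frozen lung. On the total count rises also outnumbered falls at 10 to 100 CPM in FR (437 and 11) and at 100 to 1000 CPM (136 and 93). The split moved with the scaling: 203 of 1236 DEGs were lower with upper quartile scaling and 180 of 1184 with limma on the deposited log2 values, an alternative chosen after seeing the data like the rows with whole counts alone (1129) and the omission of libraries 57 and 59 (1192). Leaving out 1 library at a time gave 1154 to 1255 DEGs, 266 to 333 for FFPE 1yr vs. FR > FFPE, 682 to 756 for the difference from liver and 379 to 404.2 for the difference in rows with 10 or more counts (390 in the main comparison, 573 when thinned).

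Lyz2 (−0.50) turned to 0.18 on the total count, 0.0578 with upper quartile scaling, 0.13 with the total count without rows over 1% of a library and 0.16 with limma on the log2 values. Dynlrb2 (−0.33) turned to 0.35, 0.22, 0.30 and 0.39 under the same alternatives. Alb (1.42) turned to −0.14 with limma voom, −0.46 without FR > FFPE library 57 (up to 2.23 without FR library 52) and −0.0401 without libraries 57 and 59. For limma voom the cause was not tested. No paired analysis was possible because the titles number all libraries in 1 run and name no animal, so that FR and FR > FFPE share no replicate number.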
